A study of Arabidopsis thaliana with 6 samples.

Results

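Ribosomal protein genes encode the proteins that, with ribosomal RNA, build the large and small subunits of ribosomes. Here they are the genes whose title in the authors' annotated table names a ribosomal protein or a structural constituent of the ribosome. The title matched 67 probe sets, of which 6 name several genes and were set aside. The remaining 61 probe sets each name 1 gene, so the members are 61 genes of the 20310 that had a probe set to themselves, or 61 of the 22746 probe sets tested. The annotated table gives no title for 15260 of its 22810 probe sets and cuts long titles short, so the members are a part of the ribosomal protein genes on the array. The members were chosen by these words and not by their values.

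Each of 6 samples of whole Arabidopsis thaliana seedlings was hybridised to 1 Affymetrix array. The seedlings were of ecotype Col-0, the standard wild-type laboratory strain, and the labels name no transgene or mutation. They grew on solid Murashige and Skoog medium at 23 °C with 16 h of light a day. The 3 control samples stayed untreated in the light, and the 3 heat samples received 37 °C for 30 min in the light. The labelled ages differ from array to array, 10, 11 and 12 days for the controls and 13, 14 and 15 days for the heat samples, while the text on the whole series gives 10 days for all. Age by these labels and heat cannot be told apart except through a fitted slope. Whether the samples of a group were grown separately is not stated, so p-values measure a spread that may be technical. The dark groups that the series text names were not analysed here.

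A plant cell holds ribosomes in the cytosol, in plastids and in mitochondria, and nuclear genes encode all proteins of the cytosolic ribosome and many of the organelle ribosomes. In Arabidopsis nearly every cytosolic ribosomal protein is encoded by a small family of close gene copies, called paralogs here. Their messengers are among the most abundant of growing cells, and heat is known to hold back their translation in plants. The probe sets measured the level of messenger RNA only, not translation or the number of ribosomes. By titles and general knowledge, 13 members encode cytosolic small-subunit proteins, 17 cytosolic large-subunit proteins, 19 plastid proteins and 9 mitochondrial proteins. Another 2, rps15ab and rps15ae, are the divergent B and E copies of the S15a family, and their compartment was not set. The last member, PUB12 (AT2G28830), encodes a U-box ubiquitin ligase and carries the ribosomal words only in its title.

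Few ribosomal protein genes changed after heat, and none was called with a change of 2-fold or more, a size that 6.78% of all probe sets reached with a call. Of the 61 members, 6 were called higher and 2 lower (limma, Benjamini-Hochberg adjusted p under 0.05), which left 53 not called. The shares were 9.84% higher and 3.28% lower, beside 7.82% and 11.5% of all probe sets tested, and 13.1% called in either direction beside 19.3%. At an unadjusted p under 0.05, 17 of the 61 members passed, beside 7337 of the 22746 probe sets tested. The changes, each the mean of the heat arrays minus the mean of the control arrays on the log2 scale, ran from -0.55 to 0.84 with a median of -0.03. The median of all probe sets was 0.02. Seedlings are mixtures of cell types, so fewer cells of a type and less RNA per cell cannot be told apart in these values.

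On the deposited scale the confidence intervals of the members were about as wide as those of all probe sets, with a median SE of 0.11 in both. They cover only the spread between arrays, not the choice of scale or the labelled age. The 95% confidence interval of the change lay inside ±0.5 on the log2 scale for 42 members (68.9%, against 54.6% of all probe sets) and inside ±1 for 59 members (96.7%, against 83.5%). The estimate itself was within ±0.5 for 56 members (91.8%, against 79.6% of all probe sets). The median SD between arrays was 0.12 in the controls and 0.12 after heat, with n = 3 each, beside 0.14 and 0.11 for all probe sets. In 39 members the control and heat arrays overlapped. All heat arrays lay above all control arrays in 10 members (16.4%, against 18.8% of all probe sets) and below them in 12 (19.7%, against 20.0%).

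The split between rises and falls depended on how the arrays were put on a common scale. After quantile normalization of the deposited levels 7 members were higher and 9 lower (11.5% and 14.8%, beside 9.47% and 10.4% of all probe sets). After centring each array on its median 10 were higher and 1 lower (16.4% and 1.64%, beside 13.4% and 9.35% of all probe sets). On a scale set by the spiked Bacillus control transcripts, called the Bacillus scale here, none was higher and 29 were lower, 47.5% of the members beside 36.8% of all probe sets. The last scaling moved the median of all probe sets to -0.43 and that of the members to -0.48, and centring moved them to 0.12 and 0.07. Both of these scalings shift all probe sets of an array alike, so the members' median stayed at -0.05 relative to that of all probe sets. After quantile normalization it was -0.12 relative to that of all probe sets. With the labelled age as a covariate no member was called, while 1.58% of all probe sets were called higher and 0.998% lower.

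**Figure D1:**
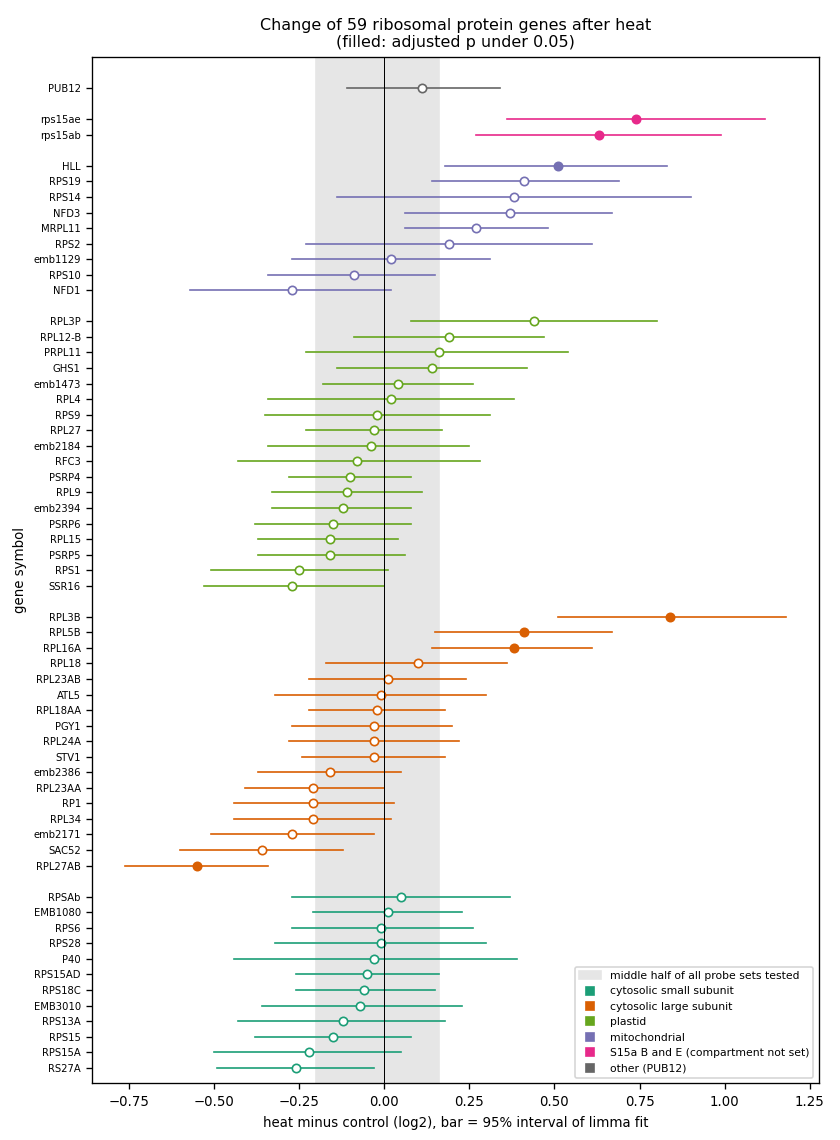
Change of 59 members after heat (horizontal axis, heat minus control, log2) with the 95% interval of the limma fit as a bar, grouped by the ribosome each protein belongs to. Filled points passed the adjusted p threshold of 0.05 and the grey band is the interquartile range of all probe sets, -0.20 to 0.16. Most points lie near 0, and the points farthest to the right are RPL3B at 0.84 and rps15ae at 0.74.

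The cytosolic small subunit decodes the messenger RNA, and none of its 13 members passed the test. On the deposited scale the changes ran from -0.26 to 0.05 with a median of -0.05. On that scale the 95% interval of every one of the 13 lay inside ±0.5. At an unadjusted p under 0.05, 1 of them passed, beside 7337 of the 22746 probe sets tested. RPS6 (RPS6A, AT4G31700) and EMB3010 (RPS6B, AT5G10360) encode S6, the ribosomal protein that S6 kinase phosphorylates downstream of the growth kinase TOR. RPS6 was at 10.76, 10.94 and 10.93 in control arrays 1, 2 and 3 and at 10.94, 10.68 and 10.98 in heat arrays 1, 2 and 3. EMB3010 was at 10.50, 10.76 and 10.42 and at 10.64, 10.37 and 10.48 in the same order. The groups overlapped in both genes. The changes were -0.01 ± 0.11 (SE, adjusted p = 0.981) and -0.07 ± 0.122 (adjusted p = 0.764).

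RS27A (AT3G61110) encodes an S27 protein, and loss of this copy is known to make plants sensitive to DNA damage. Its control levels were 11.62, 11.55 and 11.52 and its heat levels 11.40, 11.14 and 11.37. The groups did not overlap, but the change of -0.26 ± 0.097 was not called (adjusted p = 0.118). RPS15A (AT1G07770), which encodes an S15a protein, also had all heat arrays below the controls, with -0.22 ± 0.115 (adjusted p = 0.236). RPS13A (AT4G00100), a gene whose mutant has pointed first leaves, was at 10.80, 10.97 and 10.53 and then at 10.63, 10.74 and 10.57. The difference of -0.12 ± 0.128 was smaller than the SD of 0.225 among the controls (adjusted p = 0.567). P40 (AT1G72370), an Sa protein, had the widest controls of this class at 11.18, 11.12 and 10.54, and its heat arrays lay between 10.89 and 10.95. Other differences in the class were those of RPS15 with -0.15, RPS18C with -0.06, RPS15AD with -0.05, RPS28 with -0.01, EMB1080 with 0.01 and RPSAb with 0.05. In each of these the groups overlapped.

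The cytosolic large subunit joins amino acids into the protein chain, and its 17 members held 3 rises and 1 fall (17.6% and 5.88%, beside 7.82% and 11.5% of all probe sets). The median change was -0.03, and 12 of the 17 estimates were negative. RPL3B (AT1G61580) encodes a copy of L3, a protein known from yeast to reach into the peptidyl transferase centre. It was at 7.12, 6.99 and 6.66 in the controls and at 7.71, 7.93 and 7.67 after heat. Every heat array lay above every control array, and control array 3 was the lowest of the 6. The rise was 0.84 ± 0.14, or 1.80-fold (adjusted p = 0.00763). It was called without any 1 of the 6 arrays (adjusted p up to 0.0322). It was not called with the age covariate (1.21, adjusted p = 0.096) or on the Bacillus scale (0.39, adjusted p = 0.128).

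RPL5B (AT5G39740) encodes L5, which in yeast carries the 5S ribosomal RNA into the large subunit. Its levels were 9.80, 9.76 and 9.65 in the controls and 10.27, 9.96 and 10.21 after heat, with no overlap and with heat array 2 the lowest after heat. The rise was 0.41 ± 0.107, or 1.33-fold (adjusted p = 0.0412). The call held without heat replicate 2 and was lost without any other array (adjusted p up to 0.136). On the Bacillus scale the difference was -0.04. RPL16A (AT2G42740) encodes a protein of the L11 family, which in yeast binds the 5S particle beside L5. It stood at 7.20, 7.23 and 7.18 in the controls and at 7.76, 7.46 and 7.52 after heat. The rise was 0.38 ± 0.0986 (adjusted p = 0.0413). With a single array omitted, this call too held only without heat replicate 2 (adjusted p up to 0.106 otherwise). On the Bacillus scale the difference was -0.07.

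RPL27AB (AT1G23290), which encodes an L27a protein, was the large-subunit gene that fell. Its control levels were 12.86, 12.69 and 12.70 and its heat levels 12.28, 12.15 and 12.15. The lowest control array was above the highest heat array, and the spread within each group was small. The change was -0.55 ± 0.087, or 1.46-fold lower (adjusted p = 0.00632), and it was called without any 1 of the arrays (adjusted p up to 0.0341). With the age covariate it was -0.33 (adjusted p = 0.428). Its probe set is of the type that can bind messengers of related genes, the only such probe set among the members, so the value may include a paralog.

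SAC52 (RPL10A, AT1G14320) encodes L10, a protein that in yeast joins the large subunit late and that plants also use in an antiviral signalling route. Its levels were 11.91, 12.06 and 12.15 before and 11.80, 11.58 and 11.66 after heat. The groups did not overlap, and the change of -0.36 ± 0.101 just missed the threshold (adjusted p = 0.0513). It was called after quantile normalization (-0.54, adjusted p = 0.013) and on the Bacillus scale (-0.81, adjusted p = 0.0025). The brightest large-subunit probe sets included emb2171 (AT3G04400), an L23 gene needed by the embryo. It was at 12.82, 12.65 and 12.79 and then at 12.54, 12.33 and 12.59, a difference of -0.27 ± 0.1 that was not called (adjusted p = 0.118). RPL23AA (AT2G39460) had a similar pattern at a smaller size, with control levels of 11.03, 10.99 and 10.91, heat levels of 10.81, 10.66 and 10.84, and a change of -0.21 ± 0.0853 (adjusted p = 0.146).

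The other large-subunit members overlapped between groups and were not called. STV1 (RPL24B, AT3G53020), which encodes L24 and helps ribosomes restart on messengers with upstream reading frames, was at 10.83, 10.77 and 10.88 and then at 10.87, 10.66 and 10.86. ATL5 (RPL5A, AT3G25520), an L5 gene whose mutants have narrow leaves with altered polarity, was at 10.83, 10.66 and 10.69 and then at 10.89, 10.46 and 10.80. The changes were -0.03 ± 0.0895 and -0.01 ± 0.13 (adjusted p = 0.864 and 0.973). PGY1, an L10a gene of leaf polarity, differed by -0.03, RPL24A by -0.03, RPL18AA by -0.02, RPL23AB by 0.01 and RPL18 by 0.10. RPL34 and RP1 each differed by -0.21 and emb2386, an L19 gene, by -0.16.

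**Figure D2:**
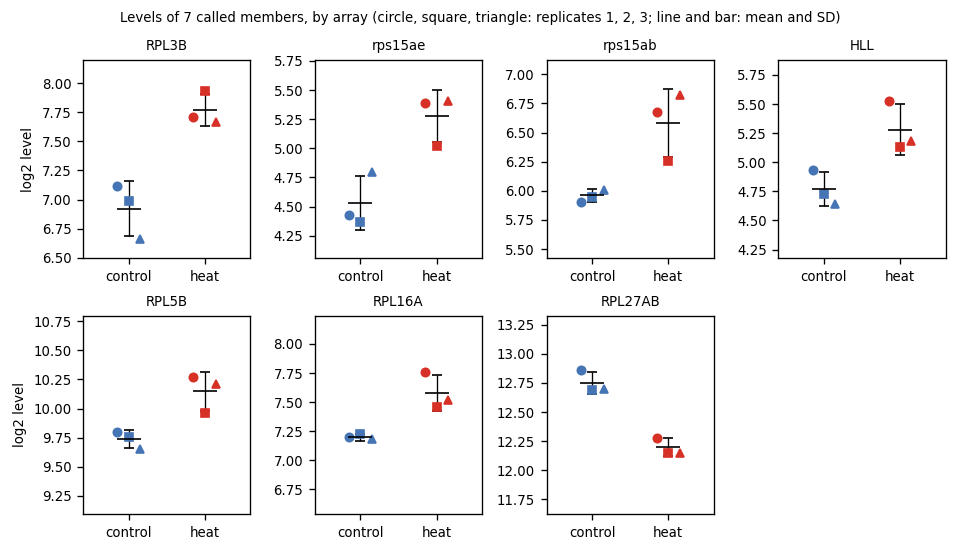
Log2 level in each array (vertical axis, a separate range for each gene) of 7 members called higher or lower, with the mean and SD of the 3 control arrays in blue and the 3 heat arrays in red. No control array overlaps a heat array in any of the 7, from RPL3B (control mean 6.92, heat mean 7.77) to RPL27AB (12.75 and 12.20).

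Plastid ribosomes make proteins of the photosynthetic machinery, and 1 of their 19 members fell while none rose. The median change was -0.08, and the interval of the change lay inside ±0.5 for 14 of the 19. The share lower, 5.26%, stood beside 11.5% of all probe sets. In 6 of the 19 (31.6%) all heat arrays lay below the controls, beside 20.0% of all probe sets.

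In 5 of these 6 plastid members there was no call. SSR16 (AT4G34620), a plastid S16 gene with a probe set among the 3 brightest of the members, was at 12.72, 12.73 and 12.82 and then at 12.56, 12.28 and 12.62. Its change was -0.27 ± 0.11 (adjusted p = 0.149). RPS1 (AT5G30510), whose loss is known to blunt the heat acclimation of Arabidopsis, had levels of 11.69, 11.38 and 11.37 and then 11.27, 11.18 and 11.24. The change of -0.25 ± 0.108 was not called (adjusted p = 0.168). The other 3 were PSRP5 with -0.16, emb2394 with -0.12 and PSRP4 with -0.10, of which PSRP4 and PSRP5 encode proteins particular to plastid ribosomes.

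RPL3P (AT3G17465), titled as a plastid L3 gene, pointed the other way. It was at 7.26, 7.26 and 6.81 in the controls and at 7.71, 7.42 and 7.53 after heat, and its change of 0.44 ± 0.149 was not called (adjusted p = 0.0902). The remaining 12 plastid members overlapped between groups. They included GHS1, an S21 gene whose mutant is hypersensitive to glucose, with 0.14, PRPL11 with 0.16 and RFC3, an S6-like gene needed for root patterning, with -0.08. RPL12-B had the dimmest plastid probe set, with levels of 3.55 to 4.05 over the 6 arrays, and a change of 0.19 that was not called (adjusted p = 0.322). RPL15, PSRP6 and RPL9 differed by -0.16, -0.15 and -0.11, and emb2184, RPL27, RPS9, RPL4 and emb1473 by -0.04 to 0.04.

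Mitochondrial ribosomes make a few subunits of the respiratory chain, and 1 of the 9 mitochondrial members rose (11.1%, beside 7.82% of all probe sets). The median change was 0.27, with 7 of 9 estimates positive, beside a median of 0.02 over all probe sets. HLL (AT1G17560) encodes a mitochondrial L14 protein, and its mutant stops ovule growth. It was at 4.93, 4.73 and 4.64 in the controls and at 5.53, 5.13 and 5.18 after heat. The groups did not overlap, and the rise was 0.51 ± 0.136, or 1.42-fold (adjusted p = 0.0443). With a single array omitted, the call held only without control replicate 1 (adjusted p up to 0.119 otherwise). The estimate was 0.06 on the Bacillus scale (adjusted p = 0.799) and 0.99 with the age covariate (adjusted p = 0.09).

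In 3 more mitochondrial members all heat arrays lay above the controls, and none was called. With HLL that made 4 of 9 (44.4%), beside 18.8% of all probe sets. RPS19 (AT5G47320) was at 7.48, 7.16 and 7.26 and then at 7.83, 7.57 and 7.75, a difference of 0.41 ± 0.116 at the edge of the threshold (adjusted p = 0.0506). MRPL11 (AT4G35490) was at 8.59, 8.51 and 8.55 and then at 8.92, 8.68 and 8.86, a difference of 0.27 ± 0.0893 (adjusted p = 0.0835). NFD3 (AT1G31817), a gene required for fusion of the polar nuclei in the embryo sac, was at 5.62, 5.59 and 5.30 and then at 5.88, 6.02 and 5.70. Its difference was 0.37 ± 0.126 (adjusted p = 0.0946). RPS14 differed by 0.38 with wide groups, 6.60 to 7.28 before and 7.01 to 7.56 after heat (adjusted p = 0.288). RPS2 differed by 0.19, emb1129 by 0.02, RPS10 by -0.09 and NFD1, an L21 gene, by -0.27 (adjusted p = 0.182). The mitochondrial median depended on the scale of the arrays, at 0.37 after median centring and -0.18 on the Bacillus scale.

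Both divergent S15a genes rose. The E copy, rps15ae (AT4G29430), was at 4.43, 4.37 and 4.80 in the controls and at 5.39, 5.02 and 5.41 after heat. Its rise was 0.74 ± 0.158, or 1.67-fold (adjusted p = 0.0203), and the call was lost without control replicate 2 or heat replicate 1 or 3 (adjusted p up to 0.0815). The B copy, rps15ab (AT2G19720), was at 5.90, 5.95 and 6.01 and then at 6.68, 6.26 and 6.82, with heat array 2 closest to the controls. Its rise was 0.63 ± 0.15, or 1.55-fold (adjusted p = 0.0299). That call held without control replicate 3 or heat replicate 2 and was lost without any other array (adjusted p up to 0.109). With the age covariate both were at 0.45 and not called (adjusted p = 0.599 and 0.6). On the Bacillus scale they were at 0.29 and 0.18, also not called (adjusted p = 0.191 and 0.396). PUB12, the ubiquitin ligase, was near the low end of the array at 3.19 to 3.51 and differed by 0.11 (adjusted p = 0.461).

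Paralogs of the same protein could be followed in 8 families with 18 member genes. In the L3 family RPL3B rose while RP1 (RPL3A, AT1G43170) did not pass the test. RP1 was at 12.00, 11.97 and 11.82 in the controls and at 11.86, 11.69 and 11.61 after heat, a change of -0.21 (adjusted p = 0.199). The change of RPL3B exceeded that of RP1 by 1.05 (2-sided exact permutation p = 0.1, the smallest that 3 against 3 arrays allow, or 0.233 adjusted over the 7 pairs). The L5 copies RPL5B and ATL5 differed in their change by 0.42 and the L23a copies RPL23AB and RPL23AA by 0.22, each at the same smallest p of 0.1 (adjusted 0.233). This permutation test cannot give any pair a p under 0.1 with these arrays. For the 2 genes each of L24, S6 and Sa the changes differed by 0.0 to 0.08 (exact permutation p from 0.6 to 1.0).

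The S15a family had 4 members with changes of -0.22 in RPS15A, -0.05 in RPS15AD, 0.63 in rps15ab and 0.74 in rps15ae. All heat arrays lay below the controls in RPS15A, which was not called (limma, adjusted p = 0.236). They lay above the controls in rps15ab and rps15ae, which were called. Over all probe sets the heat arrays lay below in 20.0% and above in 18.8%.

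**Figure D3:**
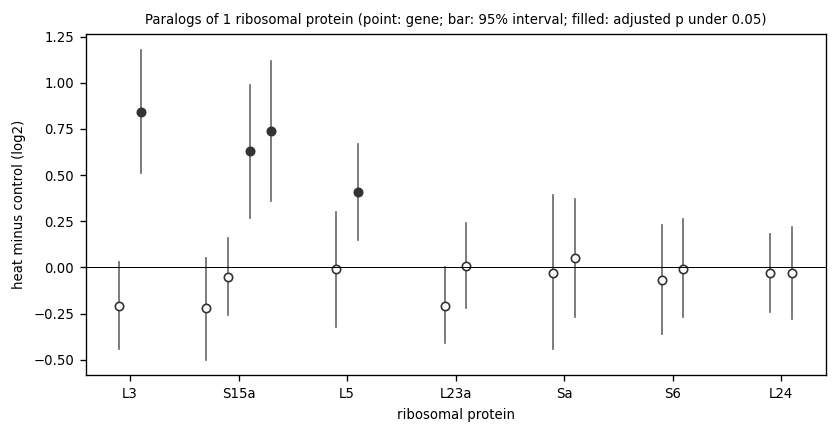
Change after heat (vertical axis, heat minus control, log2) of 16 members of 7 families that share a ribosomal protein, by protein, with the 95% interval of the limma fit as a bar and filled points for an adjusted p under 0.05. The widest gap between copies is 1.05 in L3, and the copies of L24 coincide at -0.03.

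Calls fell on opposite sides of the range of probe set brightness, a split made after the values had been seen. The brightness of a probe set also depends on its probes, so it is no order of messenger abundance between genes. Of the 41 members with a mean log2 level of 10 or more, none was higher and 2 were lower (4.88%), and in 12 (29.3%) the heat arrays all lay below the controls, beside 38.4% of all probe sets in that range. Of the 20 members below that level, 6 were higher (30.0%) and none lower, and in 10 (50.0%) the heat arrays all lay above the controls, beside 4201 of the 22119 probe sets in that range. The median changes were -0.07 and 0.32. Over all probe sets in the same ranges, 8.77% of 627 bright ones were higher and 18.7% lower (27.4% called), with a median of -0.14. Of 22119 dimmer ones 7.79% were higher and 11.3% lower (19.1% called), with a median of 0.02. The median level of these dimmer probe sets was 4.43, beside 6.98 for the 20 dimmer members, so the sets are not matched in level. RPL5B, at a mean of 9.94, was just below the dividing level, and RPS28, at 10.01, just above it. Of the 9 mitochondrial members all had a mean under 10, at 8.69 or less, so compartment and brightness cannot be told apart for them.

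Within the heat group, array 2 gave the lowest level for most ribosomal protein genes. It was the lowest of the 3 heat arrays in 45 of 61 members (73.8%), beside 34.1% of all probe sets and 46.1% of those with a mean level of 10 or more. Its level minus the mean of heat arrays 1 and 3 had a median of -0.18 over the members and 0.01 over all probe sets. The count was 12 of 13 for the cytosolic small subunit, 13 of 17 for the cytosolic large subunit, 8 of 9 for mitochondrial members and 10 of 19 for plastid members. The widest gaps were -0.52 and 0.24 to either side. The Bacillus control transcripts were also lower on this array than on the other heat arrays, with a mean of 6.26 beside 6.57 and 6.70. On control arrays 1, 2 and 3 their means were 6.04, 6.04 and 6.09, below all 3 heat arrays. The part of these control transcripts in the pattern was not tested. Without heat replicate 2 the members had 6 rises and 1 fall (9.84% and 1.64%, beside 6.55% and 8.75% of all probe sets). Their median change was then 0.02.

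**Figure D4:**
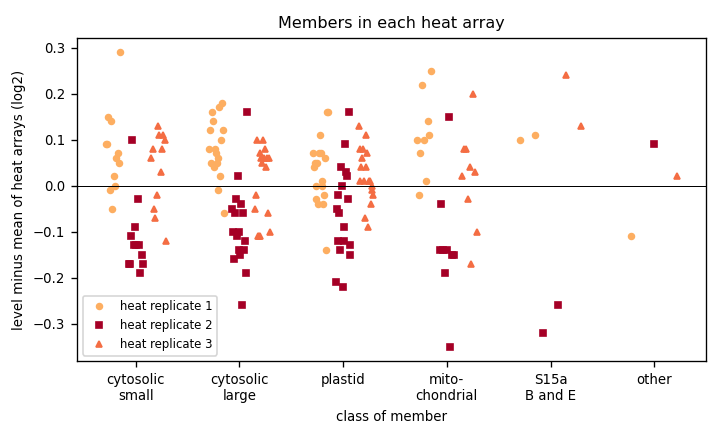
Level of 59 members in each heat array minus its mean over the 3 heat arrays (vertical axis, log2), by class of member, with a circle for heat replicate 1, a square for replicate 2 and a triangle for replicate 3. The squares lie mostly below 0 in the cytosolic and mitochondrial classes, where replicate 2 was the lowest in 25 of 30 and 8 of 9 members, and spread to both sides of 0 in the plastid class.

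Calls among listed genes that assemble and use ribosomes fell in both directions. The ribosome biogenesis list holds nucleolar and export factors that process ribosomal RNA and build the subunits. Of its 32 measured genes 5 rose and 1 fell (15.6% and 3.12%, beside 7.82% and 11.5% of all probe sets), with a median of 0.06. The share called in either direction, 18.8%, was near the 19.3% of all probe sets. LSG1-2 (AT1G08410), a GTPase that matures the large subunit in the cytosol, was at 4.41, 4.15 and 4.30 and then at 5.52, 5.73 and 5.39. It rose by 1.26 ± 0.117 (adjusted p = 0.000688) and was called without any 1 of the arrays. Its probe set is of the type that can bind messengers of related genes, so the value may include another gene. RH36 (AT1G16280), an RNA helicase of ribosomal RNA processing, rose by 1.08 ± 0.173 (adjusted p = 0.00649), from levels of 4.55 to 4.86 to levels of 5.59 to 6.15. XRN2 (AT5G42540), a nuclear exonuclease that trims ribosomal RNA precursors, fell by 0.85 on the log2 scale with an SE of 0.123 (adjusted p = 0.00442). REIL2 (0.78), BRX1-1 (0.54) and RRP7 (0.47) rose as well, called in 3, 1 and 1 of the 6 fits without 1 array. The nucleolar proteins NUC1 and NUC2 and the fibrillarins FIB1 and FIB2 were not called, with changes of -0.15, 0.30, 0.22 and 0.43. No gene of the list was called with the age covariate.

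Of 17 measured translation factors 2 rose and 4 fell (11.8% and 23.5%, beside 7.82% and 11.5% of all probe sets), with a median of -0.20. EIF4G (AT3G60240), the scaffold that brings the small subunit to capped messengers, was at 8.10, 8.04 and 8.16 and then at 7.06, 7.26 and 7.32. Its change was -0.89 ± 0.0961 (adjusted p = 0.00134), and it was -1.13 with the age covariate (adjusted p = 0.0446). EEF2 (AT1G56070), which moves the ribosome along the messenger, was at 12.20, 12.13 and 11.93 and then at 11.53, 11.49 and 11.39, a change of -0.62 ± 0.0971 (adjusted p = 0.00619). The helicase gene EIF4A1 changed by -0.47 (adjusted p = 0.00871) and the poly(A)-binding protein gene PAB8 by -0.41 (adjusted p = 0.0417, called in 1 of the 6 fits without 1 array). EIF5A-1 (AT1G13950) rose by 0.62 ± 0.151 (adjusted p = 0.0315) and the cap-binding protein gene EIF4E1 by 0.54 (adjusted p = 0.0485), each called in 1 of those 6 fits.

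The growth signalling list holds the TOR kinase pathway, which sets ribosome production, and regulators tied to ribosomal stress. Of its 10 measured genes none rose and 1 fell (10.0%, beside 11.5% of all probe sets), with a median of -0.24. NAC082 (AT5G09330), a transcription factor that relays ribosomal stress, was at 6.85, 7.13 and 6.97 in the controls and between 5.89 and 6.14 in the heat arrays. Its change was -0.97 ± 0.108 (adjusted p = 0.00151), called without any 1 of the arrays, and -0.96 with the age covariate, where it was not called (adjusted p = 0.138). TOR differed by 0.27 (adjusted p = 0.363) and S6K1 by -0.39 (adjusted p = 0.086). S6K2, a kinase that phosphorylates S6, was at 5.07, 7.37 and 9.07 in the controls and at 4.65 to 4.69 after heat. The control arrays of S6K2 were far apart, and its change of -2.50 was not called (adjusted p = 0.107).

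The heat treatment showed in other genes, while the listed markers told less about the tissue. HSP70B, a heat-induced chaperone, stood at 4.55 to 4.62 in the controls and 13.65 to 13.70 after heat, while HSFA2 was at 3.69, 3.72 and 7.30 in the controls and HSP101 at 4.82, 4.87 and 8.22, so control array 3 was set apart for them. Control array 3 minus the mean of the other controls had a median of -0.08 over the members, beside -0.05 for all probe sets. Over probe sets with a mean level of 10 or more the median was -0.1. RCA, a marker of green tissue, was at 13.32 to 13.60 in all 6 arrays. It was the only 1 of 4 listed green tissue markers that was measured. The root hair genes COBL9, PRP3 and RHD6 lay at 3.32 to 4.29, close to the pollen and seed genes at 3.12 to 4.26. Root hair genes thus did not stand out in samples described as whole seedlings. Among the other root genes SCR fell by 1.76 on the log2 scale (adjusted p = 0.000287) while SHR did not change past the threshold. Of 4 markers of dividing cells, tissue in which ribosomal protein genes are known to be highly expressed, none was called, with changes of -0.06 to 0.17. Their part in the changes of the members was not tested.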

How the data were processed

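The deposited values are log2 levels of each probe set on each array. RMA, named in the submitters' processing notes, corrects background, equalises the arrays' probe intensities and summarises each probe set, so a change in total messenger RNA would not show. Its version is not given in the sources used here, and neither is the annotation release. The authors' annotated table, which gave titles and genes, holds the same levels in all 136860 cells. The deposited log2 values were used as they are.

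Of 22810 probe sets, 64 control probe sets were left out. Heat (3 arrays) was compared with control (3 arrays) by lmFit and eBayes of limma 3.58.1, run in R 4.3.3, and Benjamini-Hochberg adjustment ran over all 22746 probe sets, with calls at an adjusted p under 0.05. Precision is limited by having only 6 arrays. The procedure was tested on simulated data. All 61 members matched a gene in RefSeq's table (assembly TAIR10.1), used for names. The members and lists were chosen with earlier results of these data known. The class of 21 members came from words of the titles and annotation and that of 40 from general knowledge, which departs from the planned use of words alone.

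Genes named by rule were the 8 largest rises and 12 largest falls among called members without overlap, up to 3 called per class or list, the 3 brightest members and a list of well-known genes; others illustrate their class and were chosen with their values seen. The split by a level of 10, the test of paralog pairs (exact permutation, scipy 1.17.1) and the account of heat array 2 were added after the data were seen. Alternatives were other scalings, filters and variance models, the age and replicate number, and leaving out each array. The labels do not say that replicate numbers mark shared batches, so the numbers were not used as pairs in the main fit. Deviations from the group means correlated at 0.04, 0.19 and -0.08 between same-numbered arrays. Between differently numbered arrays the correlations ran from -0.15 to 0.16. Promoter and protein sequences were not used here. Values of 2 members are not reported here, though they enter the counts and medians.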

Additional observations from a re-analysis of the deposited data

How the results depend on the processing

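The deposited values gave 6 members higher and 2 lower. Without 1 array at a time there were 1 to 6 higher and 1 to 2 lower, in the cytosolic class 1 to 3 and 1 to 2, in the plastid class 0 to 1 lower, in the mitochondrial class 0 to 2 higher with a median of 0.19 to 0.36. The 8 named calls became 2 to 6, those of biogenesis (6) 3 to 6, translation (6) 3 to 6 and growth signalling (1) 1 to 2. The fewest rises, 1, came without control replicate 2, heat replicate 1 or heat replicate 3. Quantile normalization gave 9 members lower, of which 7 were cytosolic and 2 plastid, 3 mitochondrial members higher and a cytosolic median of -0.13. Median centring gave 10 members higher and 1 lower, with 1 plastid member higher and 0 lower, 4 mitochondrial members higher, 2 growth signalling calls, and medians of 0.073 for all members, 0.066 cytosolic, 0.026 plastid and 0.37 mitochondrial. Scaling to the Bacillus controls gave 0 higher and 29 lower, in the cytosolic class 0 and 17, plastid 10 lower, mitochondrial 0 and 2, with medians of -0.48, -0.49, -0.53 and -0.18 for all, cytosolic, plastid and mitochondrial members, 13 biogenesis, 10 translation and 6 growth signalling calls, and RPL5B at -0.04 and RPL16A at -0.07. That scaling shifts all probe sets alike, and the cause of the shift was not tested. Without moderation 0 members were higher and 1 lower, 0 cytosolic and 0 mitochondrial higher, 0 plastid lower, and 1 named and 2 biogenesis calls were left. With the age covariate 0 were higher and 0 lower in any class, 0 named, 0 biogenesis, 1 translation and 0 growth signalling calls were left, and the mitochondrial median was 0.50. A 2-fold minimum left 0 members, 2 biogenesis, 0 translation and 0 growth signalling calls. The trended variance gave 2 cytosolic members lower and 0 mitochondrial higher, array weights 2 cytosolic lower, 3 mitochondrial higher and 2 growth signalling calls, and 1 probe set per gene 2 mitochondrial higher. With the replicate number as a block 5 members were higher and 1 lower, with 1 cytosolic and 2 mitochondrial higher, 0 plastid lower and 5 named calls. Over 32 named genes and 544 fits of them, 458 stayed on their side of the threshold, 68 lost the call, 16 gained one and 2 turned the sign of a called change. Among the 458 were 32 whose sign differed, with a call in neither fit. Leaving out PUB12 or the dimmest 25% of probe sets, or taking the mean of a gene's probe sets, moved no count by over 1.5 times.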

Other observations

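The 6 probe sets that match the titles but name several genes held no rise and 2 falls (33.3%). The share lower was 11.5% of all probe sets and 18.7% of those with a mean level of 10 or more, the range of all 6. RPL12-C was at 12.73, 12.88 and 12.75 in the controls and at 12.43, 12.39 and 12.34 after heat, a change of -0.40 ± 0.0802 (limma, adjusted p = 0.0159). EMB2296 was at 12.49, 12.38 and 12.29 and then at 12.11, 11.79 and 11.88, a change of -0.46 ± 0.11 (adjusted p = 0.0304). In these 2 and in ATRPS5B all heat arrays lay below the controls, 3 of 6 (50.0%), beside 38.4% of probe sets with a mean level of 10 or more. ATRPS5B (-0.24), XW6 (-0.09), PGY2 (-0.06) and RPL16B (0.23) were not called.

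Well-known ribosomal protein genes whose titles carry no matching words were not called either. RPL10B was at 7.16, 7.02 and 6.76 and then at 7.37, 7.13 and 7.44, a difference of 0.33 ± 0.135 (adjusted p = 0.141). RPL10C differed by 0.10, RPL4A by 0.09, RPL4D by -0.02 and RPS18A, a gene whose mutant has pointed first leaves, by 0.17 (adjusted p = 0.363).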
